A study of Mus musculus with 6 samples.

Results

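Resident macrophages of the dorsal root ganglion (DRG) were followed here through 10 genes, namely Mrc1, C1qa, C1qb, C1qc, Aif1, Csf1r, Cd68, Cx3cr1, Cd163 and Adgre1. They were taken from whole-ganglion arrays by exact match of the gene symbol in the array annotation, which gave 15 of the 45037 probe sets tested and 10 of the 18193 genes that have a probe set of their own. A probe set is a group of short oligonucleotides on the array that reads 1 transcript. Each gene was represented by its brightest probe set, the one with the highest mean log2 value over the 6 arrays, and its other probe sets are given as well. The arrays compared Meis1 conditional knockout mice (Meis1cko) with control mice at P60, 3 mice per genotype and 1 array per mouse, on total RNA of cervical, thoracic and lumbar DRGs. Meis1cko mice combined a Nav1.8-Cre transgene with a floxed Meis1 gene that loses a homeodomain exon to Cre. The transgene is active in the majority of nociceptors, and the gene stays whole wherever Cre is not made. The labels call the other mice control, with no further genotype, and give no sex. The study set out to learn how far Meis1 shapes gene expression in adult DRGs, and none of the macrophage genes was its target.

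Macrophages of the DRG lie around the cell bodies of sensory neurons, next to satellite glia and along the vessels of the ganglion. They depend on signals through the CSF1 receptor, take up debris and pathogens through scavenger and lectin receptors, and make C1q, which starts the classical complement cascade. After nerve injury they are known to multiply and to take part in pain hypersensitivity. Their development and much of their gene programme rest on the transcription factor PU.1, the product of Spi1, which binds purine-rich DNA with a GGAA core.

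The promoters of the members were searched for the 6 letters GAGGAA, a form of the PU.1 core, on both strands, so that TTCCTC was read as a match too. RefSeq sequence of GRCm38.p6 was at hand for 7 of the 10 members and covered the 200 bases before the start of each gene. For C1qa, Csf1r and Adgre1 there was none, so the matches cannot be set against the fold changes of the members. The letters were in 4 of these 7 windows, those of Mrc1, C1qb, C1qc and Aif1, and in 6250 of the 32851 windows of all genes (19.0%). The 4 windows are printed because they hold the match. Capitals mark the match. The Mrc1 window is chr2:14229214-14229413 on the plus strand, and its 3 matches lie 35 to 180 bases before the start. The C1qb window is chr4:136886201-136886400, the C1qc window chr4:136892915-136893114 and the Aif1 window chr17:35176053-35176252, all on the minus strand. Their single matches lie 30, 193 and 7 bases before the start, in that order of genes.
Mrc1: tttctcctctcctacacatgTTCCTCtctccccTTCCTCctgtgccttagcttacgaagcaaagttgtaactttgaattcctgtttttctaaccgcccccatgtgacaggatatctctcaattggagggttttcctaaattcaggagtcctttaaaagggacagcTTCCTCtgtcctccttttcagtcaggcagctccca
C1qb: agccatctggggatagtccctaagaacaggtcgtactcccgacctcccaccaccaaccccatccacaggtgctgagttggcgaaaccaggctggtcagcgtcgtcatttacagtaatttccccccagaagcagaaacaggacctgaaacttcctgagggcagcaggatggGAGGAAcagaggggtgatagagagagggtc
C1qc: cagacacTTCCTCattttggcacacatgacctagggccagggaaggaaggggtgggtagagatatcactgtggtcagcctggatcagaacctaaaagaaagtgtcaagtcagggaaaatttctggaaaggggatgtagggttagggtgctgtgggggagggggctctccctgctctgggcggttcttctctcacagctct
Aif1: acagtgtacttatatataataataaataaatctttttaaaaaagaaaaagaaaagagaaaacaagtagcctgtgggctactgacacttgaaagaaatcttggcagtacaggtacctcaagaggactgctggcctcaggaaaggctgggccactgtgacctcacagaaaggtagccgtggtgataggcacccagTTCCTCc
A match of these letters is a description of the sequence and says nothing of binding in these ganglia. The windows of Cd68, Cx3cr1 and Cd163 had no match.

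The deposited values were normalized intensities on a linear scale, with medians between 62.7 and 65.6 on the 6 arrays and 25th percentiles between 20.8 and 22.6. Meis1, the targeted gene, lay between 64.2 and 72.1 in the 3 Meis1cko mice and between 90.2 and 144 in the 3 control mice (log2 fold change -0.74 ± 0.18 SE, limma adjusted p = 1, exact permutation p = 0.1). The other Meis1 probe sets gave 0.13 and -0.16. Sensory neuron, Schwann cell and satellite glia genes were bright, with none of the 10, 4 and 6 measured genes below the median of every array. Control replicate 1 had the highest summed intensity of fibroblast, muscle, red blood cell and fat genes of the 6 arrays, and the comparisons of the macrophage genes are given with and without it. Both arrays numbered 3 had the lowest summed intensity of skeletal muscle, fat and neutrophil genes in their genotype and the smallest difference between 3′ and 5′ probe sets of Actb (0.44 in Meis1cko and 0.42 in control on the log2 scale, against 1.23 to 1.66 on the other 4 arrays).

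No macrophage gene passed the threshold, an adjusted p under 0.05, between the genotypes. The 10 genes nevertheless differed in where they lay, since Mrc1 had a log2 fold change of -0.90, the 3 C1q genes, Aif1 and Csf1r lay between -0.48 and -0.34, and Cd163, Adgre1, Cd68 and Cx3cr1 lay between -0.28 and 0.14. In limma, with p-values adjusted by Benjamini-Hochberg across the whole array, 0 of 10 members were called, beside 7 of all 45037 probe sets (0.0155%). At an unadjusted p under 0.05 there was 1 member, Mrc1, which was lower in Meis1cko, as were 1.37% of all genes. The methods' t-test called 0 members after the same adjustment, and 0 had an unadjusted p under 0.05 by it. Without control replicate 1, 0 members had an unadjusted p under 0.05, against 0.665% of all genes in the lower direction. With the replicate number as a block the count at an unadjusted p under 0.05 was 5, namely Mrc1, C1qa, C1qc, Aif1 and Csf1r, all lower in Meis1cko, against 3.81% of all genes, and after adjustment 0 passed, beside 0.0822% of all probe sets. Where RNA comes from whole ganglia, fewer macrophages and less RNA per macrophage cannot be told apart.

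**Figure D1:**
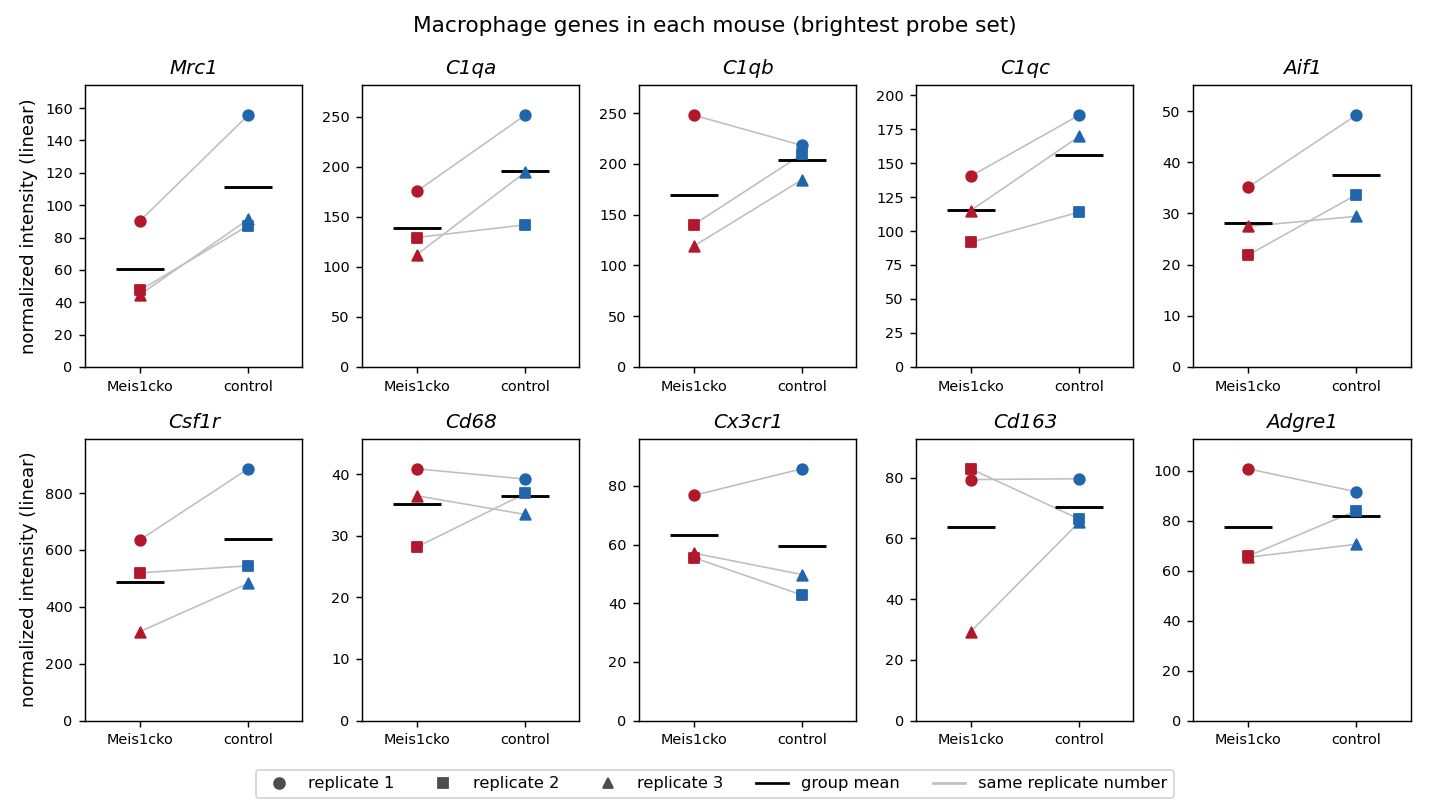
Normalized intensity (linear axis from 0) of each macrophage gene in the 3 Meis1cko mice, left, and the 3 control mice, right, by the brightest probe set, with symbols for the replicate number and a bar for the group mean. In every panel the values of the genotypes overlap, and replicate 1 is the highest of its genotype in most panels.

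Mrc1, the mannose receptor CD206 that perivascular and other tissue macrophages use to take up glycoproteins, read 90.1, 47.3 and 44.6 in Meis1cko replicates 1, 2 and 3 and 156, 87.4 and 91.2 in control replicates 1, 2 and 3 (probe set 1450430_at). The group means were 60.7 ± 25.5 in Meis1cko and 111 ± 38.4 in control (SD, n = 3 each). Replicate 1 was the highest of each genotype, and the genotypes overlapped by a narrow margin, since Meis1cko replicate 1 lay above control replicate 2. The log2 fold change was -0.90 ± 0.33 (SE, 95% confidence interval -1.67 to -0.13, limma adjusted p = 1). Without control replicate 1 it was -0.64 ± 0.32, and its 95% confidence interval of -1.42 to 0.15 included 0. Within pairs of the same replicate number the spread was much smaller, and the differences were -0.79, -0.89 and -1.03 on the log2 scale, that is 0.579, 0.541 and 0.489 times the control of that number. With the replicate block the SE was accordingly 0.11 and the adjusted p 0.0539, above the threshold of 0.05. Both rest on taking the replicate numbers as pairs, which the labels do not state. Over all probe sets, deviations from the group mean also correlated between replicates 1 and 2, at r of 0.337 and 0.319. Within those numbers r was 0.424 and 0.535. Paired fits in limma without 1 of the replicate numbers, added after the data had been seen, gave Mrc1 an adjusted p of 0.0031 without replicate 1, 0.0372 without replicate 2 and 0.256 without replicate 3. These fits rest on 2 arrays per genotype and called 0.837%, 0.304% and 0.0799% of all probe sets, in the same order. The exact two-sided permutation test gave p = 0.2, where the smallest value that 3 arrays against 3 allow is 0.1.

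C1qa, C1qb and C1qc code for the A, B and C chains of C1q, the recognition molecule of the classical complement pathway, which tissue macrophages supply in many organs. The genes neighbour each other on mouse chromosome 4 with no other listed gene between them. C1qa read 175, 129 and 112 in the Meis1cko mice and 251, 142 and 194 in the control mice, with means of 139 ± 32.7 in Meis1cko and 196 ± 54.8 in control (SD, n = 3 each). Control replicates 1 and 3 were above all Meis1cko arrays, while control replicate 2 was inside their range. The log2 fold change was -0.48 ± 0.25 (SE, 95% confidence interval -1.07 to 0.10), and leaving out control replicate 1 gave -0.28 ± 0.24. C1qc read 140.3, 91.7 and 115 in the Meis1cko mice, against 185, 114 and 169.6 in the control mice. It followed the order of C1qa on the control arrays, with replicate 2 the lowest, and its genotypes overlapped in the same way. Its log2 fold change was -0.42 ± 0.23 (SE, 95% confidence interval -0.97 to 0.12), or -0.29 ± 0.25 without control replicate 1. Both genes were lower in Meis1cko within all 3 pairs, C1qa by differences of -0.52, -0.14 and -0.79 and C1qc by -0.40, -0.31 and -0.56 on the log2 scale.

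C1qb was read by 3 probe sets that did not give 1 picture. The brightest, 1434366_x_at, read 248, 140.0 and 119 in the Meis1cko mice and 218, 209 and 184 in the control mice. Meis1cko replicate 1 was the highest of all 6 arrays there and the other Meis1cko arrays were the lowest. Its log2 fold change was -0.34 ± 0.27 (SE, 95% confidence interval -0.96 to 0.28), and -0.29 ± 0.32 without control replicate 1. The suffix x_at marks a probe set with oligonucleotides that can match other transcripts. Probe set 1417063_at, without that suffix, read 178, 93.1 and 119 in the Meis1cko mice and 207, 125 and 206 in the control mice, lower in the Meis1cko array of all 3 pairs, with a log2 fold change of -0.48 ± 0.29. Probe set 1437726_x_at read 178, 124 and 44.7 in the Meis1cko mice, against 148, 132 and 65.4 in the control mice. Its values were low on both arrays numbered 3, and its log2 fold change was -0.12 ± 0.53, or 0.10 without control replicate 1. With the replicate block the brightest C1qb probe set had an adjusted p of 0.759 in limma. In the added paired fits it was 0.0386 without replicate 1, which leaves out the pair in which C1qb was higher in Meis1cko, 1 without replicate 2 and 0.899 without replicate 3.

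Csf1r, the receptor tyrosine kinase for CSF1 and IL-34 on which macrophage survival depends, read 634, 519 and 312 in the Meis1cko mice and 885, 544 and 483 in the control mice (probe set 1419872_at). The means were 489 ± 163 in Meis1cko and 637 ± 217 in control (SD, n = 3 each), and in both genotypes replicate 1 was the highest array and replicate 3 the lowest. The genotypes overlapped in 2 of the 3 arrays of each. For this probe set the log2 fold change was -0.39 ± 0.32 (SE, 95% confidence interval -1.14 to 0.35), and -0.13 ± 0.31 without control replicate 1. Probe set 1419873_s_at read 238, 199 and 163 in the Meis1cko mice and 309.9, 199.6 and 195 in the control mice. Apart from control replicate 1 the genotypes were close there, and the log2 fold change was -0.21 ± 0.22 with that array and 0.0020 ± 0.19 without it. Probe set 1423593_a_at was nearly level, with 85.8, 80.2 and 92.4 in the Meis1cko mice, 84.8, 82.5 and 98.4 in the control mice and a log2 fold change of -0.04 ± 0.13.

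Aif1, which codes for the calcium-binding protein IBA1 used to stain macrophages and microglia, was dim, below the median of every array. It read 35.1, 21.8 and 27.5 in the Meis1cko mice and 49.2, 33.6 and 29.4 in the control mice, with means of 28.1 ± 6.65 in Meis1cko and 37.4 ± 10.4 in control (SD, n = 3 each). Control replicate 1 was the highest array, and Meis1cko replicate 1 lay above the other control arrays. This gave a log2 fold change of -0.40 ± 0.24 (SE, 95% confidence interval -0.97 to 0.17), or -0.19 ± 0.22 without control replicate 1. Cd68, the lysosomal sialomucin of phagocytes, was the other member below the median of every array. It read 40.9, 28.1 and 36.5 in the Meis1cko mice and 39.2, 36.9 and 33.4 in the control mice, with a log2 fold change of -0.07 ± 0.16 (SE, 95% confidence interval -0.45 to 0.32). The Meis1cko values lay on both sides of the control values.

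Cd163, the scavenger receptor for haemoglobin bound to haptoglobin, read 79.4, 82.9 and 29.3 in the Meis1cko mice and 79.7, 66.4 and 65.4 in the control mice. A single array set its difference, because Meis1cko replicate 3 was far below all others while Meis1cko replicates 1 and 2 were level with or above the controls. Cd163 had a log2 fold change of -0.28 ± 0.38 (SE, 95% confidence interval -1.18 to 0.62), -0.19 ± 0.46 without control replicate 1, and 0.21 without Meis1cko replicate 3. Adgre1, the adhesion receptor F4/80 by which mouse macrophages are sorted, read 101, 65.8 and 65.4 in the Meis1cko mice and 91.7, 84.1 and 70.6 in the control mice. Replicate 1 was the highest of each genotype. The log2 fold change of Adgre1 was -0.11 ± 0.20 (SE, 95% confidence interval -0.58 to 0.37), and -0.025 ± 0.23 without control replicate 1.

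Cx3cr1, the receptor for the neuronal chemokine fractalkine, was the only member with a fold change above 0. Its brightest probe set, 1450020_at, read 76.7, 55.5 and 57.1 in the Meis1cko mice and 85.8, 42.7 and 49.8 in the control mice. Control replicate 1 was the highest array and the other controls were the lowest. The log2 fold change was 0.14 ± 0.27 (SE, 95% confidence interval -0.50 to 0.78), and without control replicate 1 it was 0.44 ± 0.19 (95% confidence interval -0.03 to 0.91). Probe set 1450019_at, dimmer, read 23.9, 19.5 and 30.2 in the Meis1cko mice and 20.9, 23.5 and 26.1 in the control mice, with a log2 fold change of 0.04 ± 0.18, or -0.04 without control replicate 1.

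**Figure D2:**
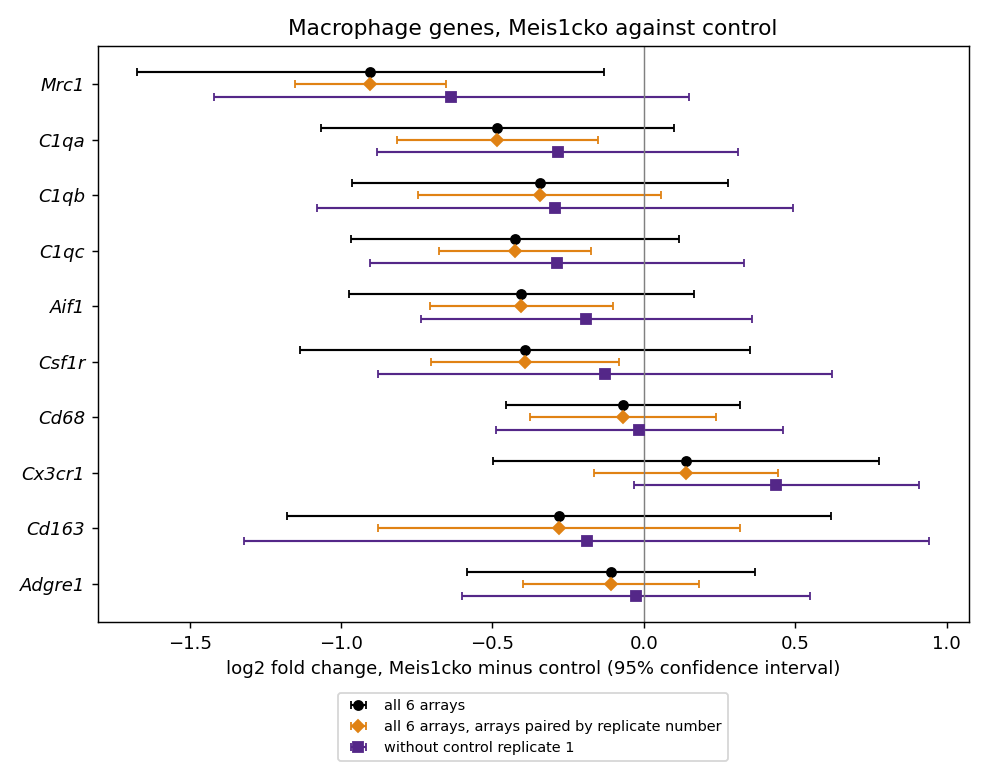
Log2 fold change of each macrophage gene, Meis1cko minus control, with its 95% confidence interval from limma, over all 6 arrays, without control replicate 1 and with the replicate block. The interval of Mrc1 excludes 0 over all 6 arrays and includes it without control replicate 1, where Cx3cr1 moves to 0.44.

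As a group, 9 of the 10 members had a log2 fold change below 0, beside 54.2% of all genes, and 13 of the 15 probe sets did. The members moved together over the 6 arrays, with a Pearson correlation above 0 in 44 of 45 gene pairs and a median of 0.61. Counts of members, here and within pairs of arrays, are therefore not counts of separate observations. The median over the members was -0.37, against -0.01 over all probe sets. Without control replicate 1 the median of the members was -0.19, against 0.01 over the brightest probe sets of all genes. Leaving out Meis1cko replicate 3 brought it to -0.12 and leaving out Meis1cko replicate 1 to -0.58, so that single arrays moved it by over 1.5 times in both directions. None of the 10 members (0) separated the genotypes without overlap. Of all genes 3.82% were lower in Meis1cko with no overlap, a share so small that 0 of 10 does not set the members apart.

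Within pairs of the same replicate number, 5 members were lower in the Meis1cko array of all 3 pairs, namely Mrc1, C1qa, C1qc, Aif1 and Csf1r, beside 17.2% of all genes. There were 7 members lower in pair 1, 8 in pair 2 and 8 in pair 3, and the median differences were -0.28, -0.33 and -0.59 on the log2 scale.

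**Figure D3:**
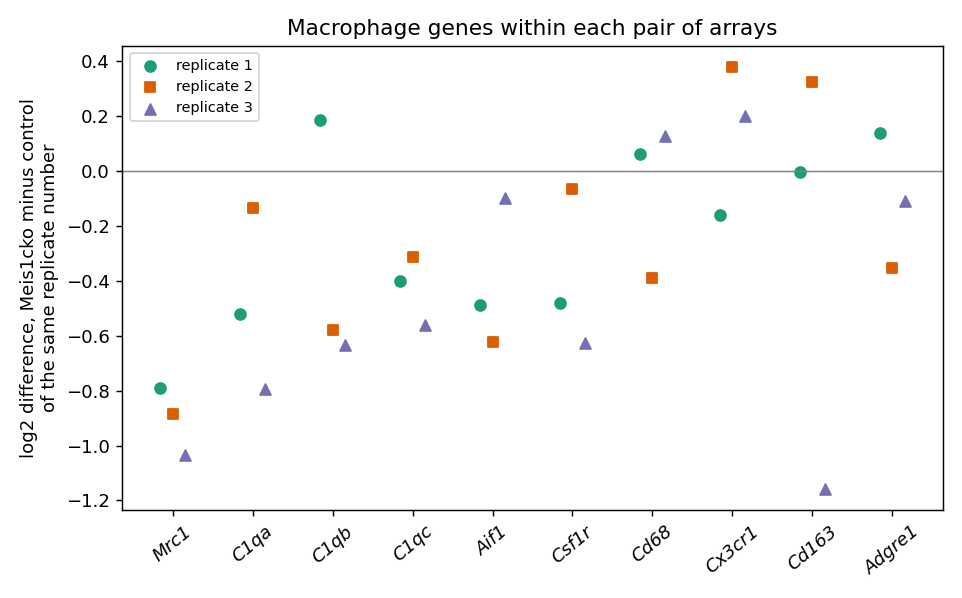
Log2 difference of each macrophage gene between the Meis1cko and the control array of the same replicate number, 1 symbol per pair. Mrc1 lies between -1.03 and -0.79 in the 3 pairs, whereas Cd163 runs from -1.16 to 0.32.

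Replicate 1 was high in both genotypes. All 10 members were above their own 6-array mean on Meis1cko replicate 1 and all 10 on control replicate 1, with mean log2 deviations of 0.25 and 0.50. On Meis1cko replicates 2 and 3 only 1 member each was above its mean, with mean deviations of -0.28 and -0.45, and control replicates 2 and 3 lay near the mean, at -0.02 and 0.01. Control replicate 1 had the highest value of 6 members, Meis1cko replicate 1 that of 3 and Meis1cko replicate 2 that of 1. The lowest value was on Meis1cko replicate 3 for 6 members, on Meis1cko replicate 2 for 3 and on control replicate 2 for 1.

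Genes around the CSF1 receptor and the macrophage transcription factors did not pass the test either. Of 9 measured of 10 listed, limma called 0, with 0 at an unadjusted p under 0.05, 5 had a log2 fold change below 0, and the median was -0.10, or 0.05 without control replicate 1. Csf1, the ligand that injured sensory neurons also make, read 238, 226 and 195 in the Meis1cko mice and 281, 246 and 196 in the control mice (log2 fold change -0.12 ± 0.17). Maf, a transcription factor of macrophages and of sensory neurons, read 1478, 1744 and 948 in the Meis1cko mice, against 1732, 1938 and 1280.3 in the control mice (-0.27 ± 0.26). Runx1, made by myeloid cells and nociceptors alike, gave 0.03 ± 0.26, and Cebpa, a regulator of myeloid development, -0.15 ± 0.14. Spi1, the gene of PU.1, gave 0.04 ± 0.13. Each of these genes overlapped between the genotypes.

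The ligands by which neurons address macrophages, and their receptors, had a median log2 fold change of -0.04 over 8 of 8 genes, with 0 at an unadjusted p under 0.05 in limma. Cd200, which restrains myeloid cells through its receptor, gave -0.11 ± 0.18, and Cd47, the signal against being eaten, -0.03 ± 0.14. Of the other complement genes 8 of 12 were measured, 0 had an unadjusted p under 0.05 and the median was -0.06. C2, the protease that is cleaved downstream of C1q, read 238, 178 and 149 in the Meis1cko mice and 317, 222 and 172 in the control mice (-0.31 ± 0.26), lower in the Meis1cko array of all 3 pairs. Serping1, the inhibitor of C1, gave -0.05 ± 0.18, and Cfp, properdin of the alternative pathway, 0.18 ± 0.20.

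Other receptors, adaptors and enzymes of macrophages were measured for 34 of 34 genes, of which 0 passed in limma and 1 was lower at an unadjusted p under 0.05. Their log2 fold changes were below 0 in 23, with a median of -0.08, or 0.05 without control replicate 1, and 10 were lower and 3 higher in the Meis1cko array of all 3 pairs. The brightest genes of the list lay between -0.22 and 0.08, namely the lysozyme gene Lyz2 (0.08 ± 0.30), the lysosomal protease gene Ctss (-0.13 ± 0.35) and the inhibitory Fc receptor gene Fcgr2b (-0.22 ± 0.19). Lyz2 read 1288, 928 and 933 in the Meis1cko mice and 1578, 742 and 807 in the control mice, so that it had, like Cx3cr1, its highest value on control replicate 1 and its lowest on the other controls. Cbr2, a carbonyl reductase made by some tissue macrophages, had the smallest p of the list, with 68.7, 65.2 and 55.7 in the Meis1cko mice and 101, 88.1 and 91.4 in the control mice. Its genotypes did not overlap (-0.57 ± 0.13, limma adjusted p = 1, exact permutation p = 0.1), and without control replicate 1 the log2 fold change was -0.51 ± 0.15.

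Among genes known from microglia, the macrophages of the central nervous system, 8 of 9 measured had a log2 fold change below 0, with a median of -0.15, and 0 passed in limma while 2 were lower at an unadjusted p under 0.05. Olfml3, a secreted olfactomedin-domain protein, read 306, 202 and 245 in the Meis1cko mice and 455, 323 and 408 in the control mice (-0.66 ± 0.20, limma adjusted p = 1, exact permutation p = 0.1). Fcrls, an Fc receptor-like scavenger receptor, read 92.7, 77.3 and 76.2 in the Meis1cko mice, against 129.6, 106 and 100.5 in the control mice (-0.45 ± 0.15, limma adjusted p = 1, exact permutation p = 0.1). All Meis1cko arrays lay below all control arrays for both genes, that is 2 of 9 measured, beside 3.82% of all genes. Siglech gave -0.02 ± 0.25.

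**Figure D4:**
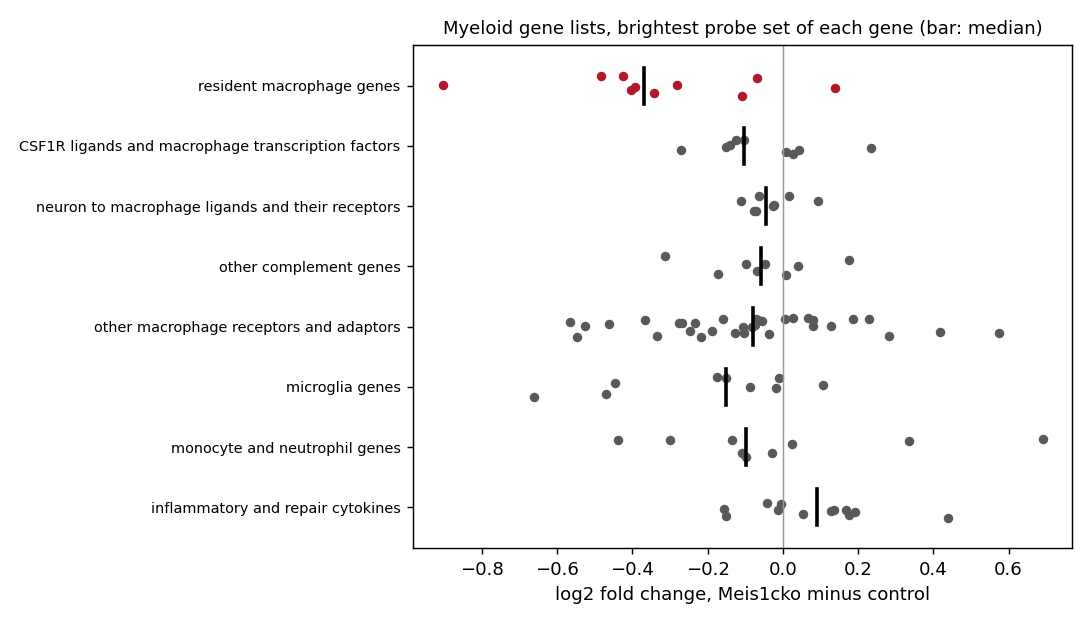
Log2 fold change, Meis1cko minus control, of every measured gene of the myeloid lists by its brightest probe set, 1 point per gene with a bar for the median of the list. Over all 6 arrays the resident macrophage genes have a median of -0.37, while the medians of the other myeloid lists lie between -0.15 and 0.09. Without control replicate 1 the median of the resident macrophage genes is -0.19. Those of the other lists then run from -0.12 (microglia genes) to 0.45 (monocyte and neutrophil genes). All lists were chosen with earlier results of these data known.

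Genes of other immune cells were read by their own lists. Monocyte and neutrophil genes (9 of 12 measured) had a median log2 fold change of -0.10, which became 0.45 without control replicate 1, with 0 at an unadjusted p under 0.05 in limma. Their summed intensity was 5024 to 8705 in the Meis1cko mice and 4223 to 13775 in the control mice, with the highest sum on control replicate 1. Cxcr2 had the smallest p of that list (limma unadjusted p = 0.060, exact permutation p = 0.1). It was higher in Meis1cko with no overlap, by a very narrow margin (0.33 ± 0.15). It was dim, below the median of every array, and read 36.4, 32.6 and 31.4 in the Meis1cko mice and 31.3, 22.7 and 26.1 in the control mice. The share of all genes higher with no overlap was not counted. Medians were -0.07 for dendritic cell genes (6 of 7 measured), 0.03 for T and NK cell genes (8 of 10), -0.11 for B and plasma cell genes (6 of 7) and -0.10 for mast cell genes (7 of 7), where limma called 0 and 1 mast cell gene was lower at an unadjusted p under 0.05. Inflammatory and repair cytokines (12 of 12) had a median of 0.09, and 1 of them, the interferon-induced chemokine gene Cxcl10, was higher at an unadjusted p under 0.05. Cxcl10 read 124, 119 and 87.4 in the Meis1cko mice and 77.3, 90.5 and 74.0 in the control mice (0.44 ± 0.17, limma adjusted p = 1), and the genotypes overlapped.

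Genes of connective tissue, muscle, blood and fat also differed from array to array. Fibroblast genes, 8 of 8 measured, had log2 fold changes below 0 in 8, a median of -0.54 and a summed intensity of 7800 to 9861 in the Meis1cko mice, against 10776 to 17736 in the control mice, and without control replicate 1 the median was -0.26. In limma 0 of them passed and 4 were lower at an unadjusted p under 0.05. Lum, which codes for the collagen-binding proteoglycan lumican, read 437, 388 and 430.0 in the Meis1cko mice and 1158, 913 and 1119 in the control mice, with no overlap (-1.34 ± 0.14, limma adjusted p = 0.0686, and 0.00717 with the replicate block). Skeletal muscle genes (8 of 8) summed to 609 to 1620 in the Meis1cko mice and 339 to 3145 in the control mice, with a median of -0.27, or 0.35 without control replicate 1. Red blood cell genes (3 of 6) summed to 212 to 344 in the Meis1cko mice and 183 to 762 in the control mice, with a median of -0.41, or 0.11 without that array. Fat cell genes (6 of 8) summed to 377 to 803 in the Meis1cko mice and 325 to 1475 in the control mice, with a median of -0.02. The lowest value of any probe set on any array was 5.56, so a value above 0 does not show that a gene was expressed. The part of these tissues in the macrophage values was not tested.

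Of the cells of the ganglion itself, the median log2 fold change was 0.02 for endothelial genes (6 of 6 measured), -0.04 for Schwann cell genes (4 of 7), -0.09 for satellite glia genes (6 of 7) and 0.05 for sensory neuron genes (10 of 11). In limma 0 of them passed, while at an unadjusted p under 0.05 there were 2 satellite glia genes lower and 1 sensory neuron gene higher in Meis1cko. The Y-linked gene Eif2s3y read 273 to 391 in the Meis1cko mice and 365 to 432 in the control mice, above the median of every array. The 4 measured sex-linked genes had a median of -0.05. That median pools Xist, of the X chromosome, with Y-linked genes, so it says nothing of the sex of the mice.

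**Figure D5:**
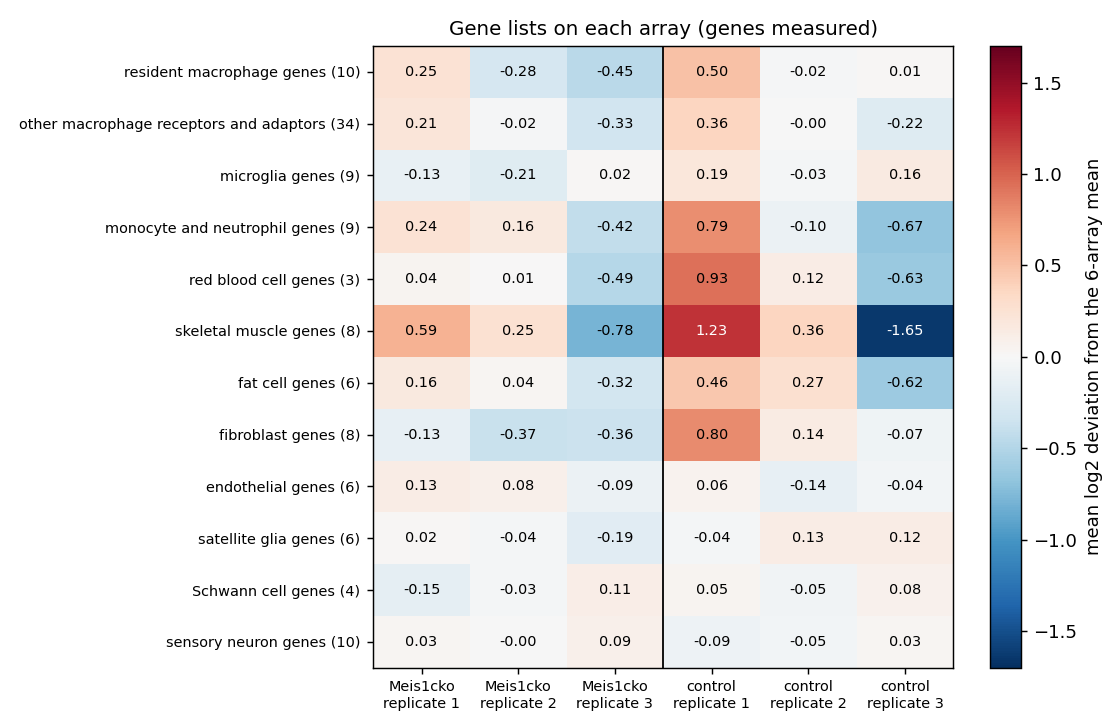
Mean log2 deviation of each gene list from its 6-array mean on each array (colour and number), the 3 Meis1cko arrays left and the 3 control arrays right of the line. The resident macrophage genes are at 0.25, -0.28 and -0.45 in Meis1cko and at 0.50, -0.02 and 0.01 in control, and the fibroblast, muscle and red blood cell lists are also highest on control replicate 1.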

How the data were processed

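Total RNA of DRGs from 3 Meis1cko and 3 control mice at P60 was hybridised to Affymetrix mouse arrays of 1 colour. The paper's methods name an RNeasy kit for the RNA and the labels name Trizol. The authors obtained the raw data with Affymetrix GeneChip Command Console 4.0 and processed them in GeneSpring 12.5, and the deposited values are normalized intensities on a linear scale. The summary and normalization methods are not given in the sources used here, and arrays allow no depth, so their number limits the precision.

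Log2 intensities, without an offset and with values under 1 set to 1, were tested with limma 3.58.1 (lmFit, eBayes; R 4.3.3), and Benjamini-Hochberg adjustment ran over 45037 probe sets at a threshold of 0.05. The 64 control probe sets were left out. Symbols came from the array annotation (1 gene for 34945 tested probe sets, several for 932, none for 9160). Of the probe sets with 1 gene, 34741 matched RefSeq of GRCm38.p6 by gene ID. Where nothing says otherwise, arrays labelled as biological replicates were taken as separate mice, as the methods give them.

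The members and the 20 other gene lists (193 genes, 171 measured) were chosen with earlier results of these data known, from general knowledge of cell types, and they support nothing as independent evidence. The rule for naming took every member with all its probe sets, and of each list the 3 brightest genes and the gene with the smallest p, of which the text gives those the results turn on. Pattern neighbours were the 5 genes at or above the median intensity, with an SD of log2 of at least 0.3, whose values correlated best with the mean deviation of the members.

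Replicate numbers were taken to pair the arrays. Deviations from the group mean were correlated over probe sets between same-numbered arrays, with r of 0.424, 0.535 and 0.766 for replicates 1, 2 and 3. Different numbers gave 0.337 and 0.319 between replicates 1 and 2, and -0.60 to -0.52 where a replicate 3 array was involved. The deviations of 3 arrays from their own mean sum to 0, so these correlations are tied to each other. They set replicate 3 apart more clearly than replicates 1 and 2 from each other. What the replicate numbers stand for is not given in the sources used here. The fitting code was tested on simulated data.

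Alternatives were quantile normalization, median centring, an offset of 16, a filter at the median, eBayes with trend, array weights, the replicate block, the methods' t-test, the mean of the probe sets of a gene, each array left out in turn and both replicate 3 arrays left out. The paired fit without each replicate number was added after the data had been seen. Another background correction could not be run, since the deposited intensities are already processed.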

Additional observations from a re-analysis of the deposited data

How the results depend on the processing

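Over all probe sets limma called 7 without a block. The count was 37 with the replicate block, 177 with array weights, 11 after quantile normalization, 4 with the filter at the median, 1 with an offset of 16, 26 with both replicate 3 arrays left out and 0 by the methods' t-test, and 1 to 15 with each array left out in turn. Of the members, 0 were called under each of these settings, the replicate block included. All these counts are after Benjamini-Hochberg adjustment, which the paper's methods do not state for their t-test. The t-test at the paper's thresholds, fold change over 1.5 and unadjusted p under 0.05, gave 92 probe sets higher and 93 lower in Meis1cko. Of the members, 0 passed these thresholds. The paired fit called 2 members (Mrc1 and C1qb) without replicate 1, 1 (Mrc1) without replicate 2 and 0 without replicate 3, and of all probe sets it called 377, 137 and 36. The median log2 fold change of the members was -0.37 and ran from -0.58 to -0.12 with each array left out. Of 186 values of single members under other settings, 174 kept their sign and side of the threshold and 9 turned the sign. Cd163 was 0.20 with array weights, 0.16 with both replicate 3 arrays left out and in the paired fit without replicate 3, and 0.21 without Meis1cko replicate 3. Cd68 was 0.084 without Meis1cko replicate 2 and 0.093 in the paired fit without replicate 2, where Adgre1 was 0.014. Cx3cr1 was -0.011 without Meis1cko replicate 1 and -0.066 without control replicate 2. With each array left out in turn Cd163 ran from -0.54 to 0.21, Cd68 from -0.18 to 0.084 and Cx3cr1 from -0.066 to 0.44. The filter at the median left 6 members to test. The cause of these shifts was not tested. Aif1 and Cd68 lay below the median intensity of every array.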

Other observations

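The genes outside the members whose values over the 6 arrays were most like the mean deviation of the members were Mrc2, Cav1, Meox2, Cavin2 and Ntn1, among 2289 candidates, of which 84 had a Pearson correlation above 0.9 with it. Theirs were between 0.976 and 0.985. Mrc2, an endocytic collagen receptor of the same family as Mrc1, read 152, 91.7 and 87.7 in the Meis1cko mice and 183, 112 and 114 in the control mice. Cav1, a coat protein of caveolae, read 1791, 1293 and 1065 in the Meis1cko mice and 2316, 1666 and 1566 in the control mice. All 5 genes had their highest value on control replicate 1, and with so few arrays these likenesses are a description with no test.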
